A study of Bos taurus with 8 samples.

Results

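The transcripts of 10 enzymes that remove peroxides were measured in granulosa cells of bovine dominant follicles: the glutathione peroxidases GPX1, GPX3 and GPX4, the peroxiredoxins PRDX1, PRDX2, PRDX3, PRDX4, PRDX5 and PRDX6, and catalase (CAT). They were chosen by name from the gene symbols given to the array's probes, and all 10 were present, out of 15216 named genes. Together they had 19 probes, and each gene was described by its probe of highest mean intensity, with its other probes compared to it. Follicles at the plateau phase, in which cells divide less and the diameter increases more slowly, were compared with follicles at the growing phase. Each stage was represented by 4 follicles of Holstein cattle, and a plateau follicle and a growing follicle were hybridised together as a pair on an EmbryoGENE bovine array, then again on a second array with the Cy3 and Cy5 dyes exchanged. The 8 arrays thus held 4 follicle pairs, numbered by their position on the slide.

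The plateau group and the growing group carried no treatment. All follicles came from slaughterhouse ovaries of animals of unknown reproductive status, and their ages were not given in the labels. The growth stage had been assigned by flow cytometry, from the DNA content of part of the same cells. The mural layer was scraped from single follicles, and RNA was amplified before labelling, so each value is that of 1 follicle rather than of a pool. In such bulk samples fewer cells of a type and less RNA per cell cannot be told apart.

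Hydrogen peroxide arises in granulosa cells from respiration and from the P450 reactions of steroid synthesis. Glutathione peroxidases reduce it with glutathione and are selenoproteins in the 3 cases measured here. Peroxiredoxins reduce it through a reactive cysteine that is mostly restored by thioredoxin, and catalase splits it into water and oxygen inside peroxisomes without a reducing partner.

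None of the 10 transcripts passed the test between the plateau and the growing phase, and the plateau and growing levels overlapped for each of them. The log2 ratio of plateau over growing had a mean under 0 for 9 of the 10 genes, with a median of -0.36 over the 10 and 0.00 over all 15216 genes. A mean under 0 was found for 48.9% of all genes. The means lay between -0.90 for GPX4 and 0.07 for PRDX6, and the SD among the 4 pairs was larger than the mean itself for 9 of the 10, CAT being the exception. The median SD was 1.13 over the 10 and 0.33 over all genes, which include many dim ones.

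The test was limma's moderated test of the 4 pair averages against 0, with Benjamini-Hochberg adjustment over 43794 probes. The study's own criterion was also applied, which asks for a log2 intensity that averages 7 or more, a change of over 1.5-fold in either direction and a p, before adjustment, under 0.05. It was met by 0 of the 10 genes, against 1.03% of all genes, and by 0 of their 19 probes, against 0.678% of all probes. By the same limma test, 0 of the 19 probes had an unadjusted p under 0.05, against 2.63% of all probes. The adjusted p was 0.9999 for every member, and 0 of all 43794 probes had an adjusted p under 0.05. Levels did not overlap between the stages for 0 of the 10 genes and for 1.52% of all genes. The p-values set each mean against the spread of the ratios among the 4 pairs, moderated over all probes. With 4 pairs the precision is limited: the 95% intervals given below extend to more than a doubling or a halving for most members.

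Across the arrays, the median Cy3 intensity was 288 to 438 and the median Cy5 intensity was 187 to 287, and 16 of the 19 member probes were above background on all 8 readings of each stage. The labelled cell type was checked with its markers, and all 9 granulosa markers were above background on 8 of 8 growing readings. On plateau readings AMH, INHA, INHBA, FSHR and NR5A2 were above it on 8 of 8, CYP19A1 on 7, FOXL2 and HSD17B1 on 6 and GATM on 5. The plateau follicle of pair 3 stood apart in its marker lists, though AMH, CYP19A1 and HSD17B1 were lower still in that of pair 2. INHA, INHBA, FOXL2, FSHR, NR5A2 and GATM were higher in the plateau follicle of pair 2 than in that of pair 3. The 9 granulosa markers had a median log2 ratio of 1.59, -0.09, -3.66 and 0.07 in pairs 1 to 4, and in pair 3 the 11 markers of smooth muscle cells and fibroblasts had a median of 3.01. Of the 9 granulosa markers, 7 were under 0 in pair 3, while GATM (3.59) and NR5A2 (0.53) were above it. Aromatase (CYP19A1) had log2 levels of 15.41, 8.06, 8.80 and 15.84 in plateau follicles, against 11.92, 8.15, 15.78 and 14.81 in growing follicles, in the order of pairs 1 to 4. It was thus low in the plateau follicles of pairs 2 and 3 and in the growing follicle of pair 2. Log2 levels were averaged over the markers of a list that were above background on at least 4 of 8 readings of a stage. These were 10 of 13 leukocyte, 4 of 8 red blood cell and 6 of 8 oocyte markers, and most or all in the other lists. In the leukocyte list, LYZ, CD3D and CD4 entered through plateau readings alone and CD14 through growing readings alone. In other lists, TIE1 (endothelial), PDGFRB (smooth muscle and fibroblast) and OOSP2 (oocyte) entered through growing readings alone, and DAZL (oocyte) through plateau readings alone. This average was 9.87 to 12.4 in plateau and 11.14 to 12.57 in growing follicles for granulosa markers. The same average for smooth muscle and fibroblast markers was 8.67 to 11.96 in plateau and 9.05 to 9.97 in growing follicles, that of leukocyte markers 7.77 to 8.87 in plateau and 7.86 to 8.01 in growing follicles, and that of theca markers 9.25 to 11.1 in plateau and 9.06 to 10.46 in growing follicles. The same average was 8.04 to 8.40 and 8.02 to 8.53 for endothelial, 8.32 to 8.77 and 8.19 to 8.49 for red blood cell, and 7.79 to 8.11 and 7.94 to 8.12 for oocyte markers, in plateau and in growing follicles. Means were under 0 for 7 of 9 granulosa markers, with a median of -0.64, which is the direction of 9 of the 10 members. Means were above 0 for 10 of 11 smooth muscle and fibroblast, 12 of 13 leukocyte and 5 of 8 theca markers. Over all genes, 48.9% had a mean under 0. Of the 11 smooth muscle and fibroblast markers, 9 were under 0 in pair 1, 7 in pair 2, 1 in pair 3 and 4 in pair 4. ITGAM and ITGB2 of the leukocyte list were above background on 0 readings. STAR of the theca list, which the paper also measured in granulosa cells, and LYZ of the leukocyte list met the study's criterion. LYZ was above background on only 5 of 8 plateau and 1 of 8 growing readings. CYP17A1 (-0.28), INSL3 (-0.37) and PTCH1 (-0.14) of the theca list had means under 0. The part of these other cells in the members' values was not tested.

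**Figure D1:**
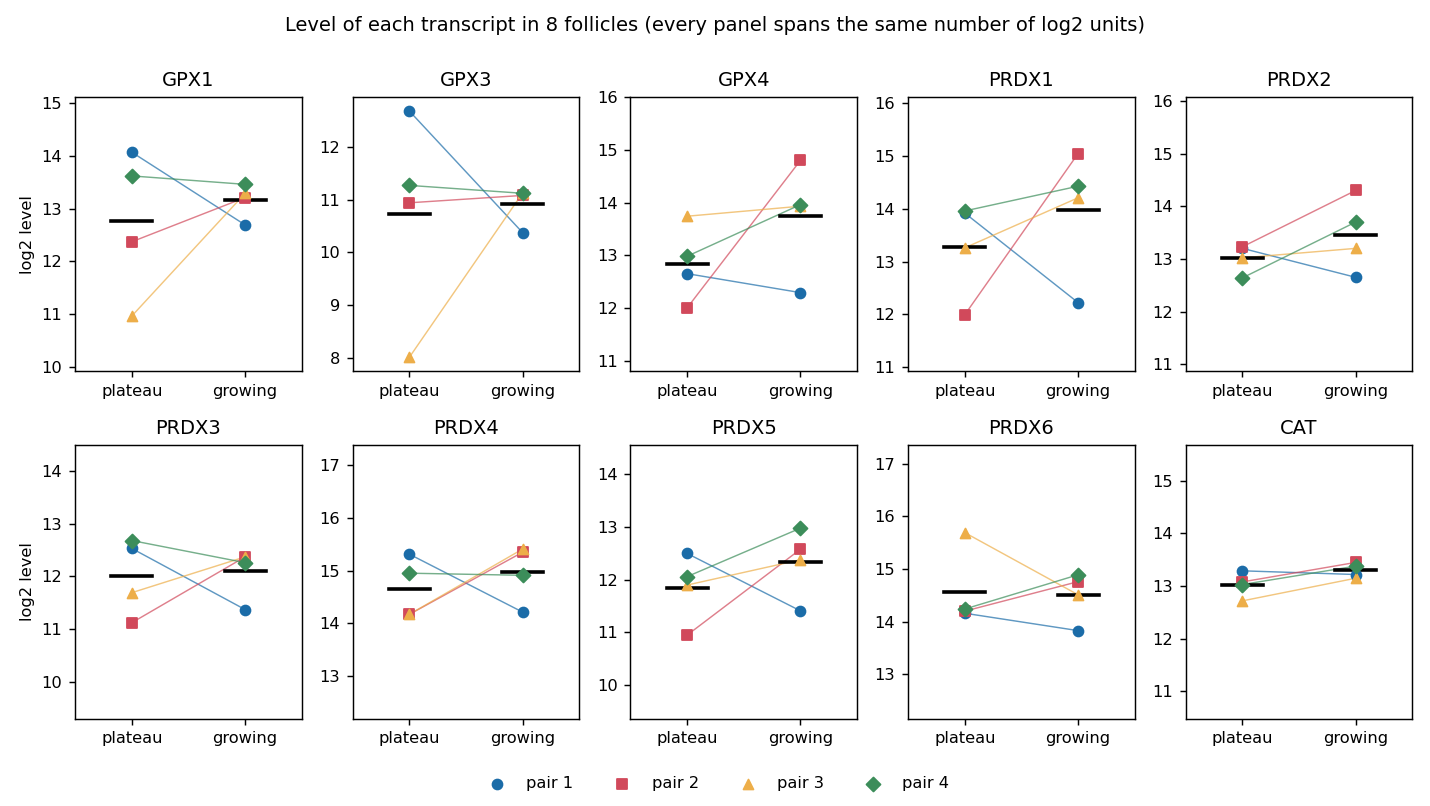
Log2 level (y axis) of the brightest probe of each member in the 4 plateau and the 4 growing follicles (x axis). Points joined by a line were hybridised together, black bars are means, and every panel spans the same number of log2 units. The levels of the plateau and growing follicles overlap in each panel, and the line of pair 1 falls from left to right in all 10 panels while that of pair 2 climbs.

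The levels below are log2 intensities after normalisation, as the mean of the Cy3 and the Cy5 reading of a follicle, and are given in the order of pairs 1 to 4. They compare follicles for 1 gene and not genes with each other, since probes differ in how strongly they bind.

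Among the glutathione peroxidases, GPX1, the abundant enzyme of the cytosol and mitochondria, had levels of 14.07, 12.37, 10.96 and 13.62 in plateau follicles, against 12.69, 13.21, 13.29 and 13.46 in growing follicles. The plateau follicles held both the highest and the lowest of the 8 values, and the growing follicles lay between them. The log2 ratio was 1.38, -0.84, -2.33 and 0.16 in the 4 pairs, with a mean of -0.41 ± 1.57 (SD, n = 4 pairs; 95% interval -2.03 to 1.21; limma adjusted p = 0.9999). Without pair 3 the mean was 0.23.

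GPX3, the secreted form found in extracellular fluids, varied most among the 10. Its levels were 12.68, 10.94, 8.01 and 11.27 in plateau follicles and 10.37, 11.08, 11.13 and 11.12 in growing follicles. The range over the 8 follicles was 4.68 log2 units, set by the plateau follicles of pairs 1 and 3, and the growing follicles lay inside it. The mean log2 ratio was -0.20 ± 2.24 (SD, n = 4 pairs; 95% interval -2.50 to 2.10; limma adjusted p = 0.9999), from ratios of 2.31, -0.15, -3.13 and 0.15. Without pair 3 it was 0.77. The SD of the levels was 1.96 in plateau and 0.37 in growing follicles for GPX3, and 1.40 in plateau and 0.33 in growing follicles for GPX1, which describes the follicles measured and was not tested. A second, dimmer probe of GPX3, above background on 6 of 8 plateau and 7 of 8 growing readings, had a mean log2 ratio of -0.17 ± 0.28 (SD, n = 4 pairs).

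GPX4 reduces lipid peroxides within membranes and is known as the enzyme that holds back ferroptosis, an iron-dependent form of cell death. It had levels of 12.65, 12.00, 13.74 and 12.98 in plateau follicles, against 12.29, 14.80, 13.93 and 13.96 in growing follicles. The plateau follicle of pair 2 was the lowest of the 8 and the growing follicle of pair 2 the highest, while in pair 1 the plateau follicle was the higher one. The ratios of the pairs were 0.36, -2.80, -0.19 and -0.97. Their mean, the lowest of the 10 members, corresponded to a plateau over growing fold of 0.536, and its 95% interval was -2.33 to 0.53 on the log2 scale (limma adjusted p = 0.9999). When the 8 arrays were kept apart with the follicle pair as a replicate block, GPX4 met the study's criterion, with the same mean log2 ratio. That fit used 1 correlation between the 2 arrays of a pair, 0.62, for all probes. The GPX4 arrays differed from their pair average by 0.11, as the mean over the pairs, against an SD of 1.38 among pairs. Repeats of the same follicles were thus counted as partly separate, and the standard error was 0.4 against 0.55 with pair averages. The call rested on no further follicles. Without pair 2 the mean of GPX4 was -0.27, and without pair 1 the mean of PRDX1, -1.50, was lower than that of GPX4, -1.32.

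The peroxiredoxins differed in how far the pairs spread. PRDX1, the main cytosolic peroxiredoxin, had levels of 13.92, 11.99, 13.26 and 13.96 in plateau follicles, against 12.22, 15.05, 14.21 and 14.43 in growing follicles. As with GPX4, pair 2 held the lowest level, in its plateau follicle, and the highest, in its growing follicle. The ratios of 1.69, -3.06, -0.95 and -0.47 gave a mean of -0.70 ± 1.95 (SD, n = 4 pairs; 95% interval -2.71 to 1.31; limma adjusted p = 0.9999). Without pair 2 the mean was 0.09.

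PRDX2, the other typical cytosolic form and a major protein of red blood cells, had levels of 13.20, 13.23, 13.02 and 12.64 in plateau follicles and 12.65, 14.30, 13.20 and 13.70 in growing follicles. The plateau levels lay close together, and only the growing follicles of pairs 2 and 4 stood above all of them. Its mean log2 ratio was -0.44 ± 0.78 (SD, n = 4 pairs; 95% interval -1.26 to 0.39; limma adjusted p = 0.9999), from 0.56, -1.07, -0.18 and -1.06. A second PRDX2 probe gave -0.42 ± 0.42 (SD, n = 4 pairs), with the same sign in each pair.

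PRDX3 is the mitochondrial enzyme that is restored by thioredoxin 2. Its levels were 12.53, 11.12, 11.69 and 12.68 in plateau follicles, against 11.37, 12.37, 12.37 and 12.26 in growing follicles. The growing follicle of pair 1 was below the other 3 growing follicles, and the plateau follicles lay on both sides of them. The mean log2 ratio was -0.08 ± 1.08 (SD, n = 4 pairs; 95% interval -1.21 to 1.04; limma adjusted p = 0.9999), from 1.16, -1.25, -0.68 and 0.43. The other probes of PRDX3 were dim, with means of -0.19 and -0.13, and the second of these was above background on 0 of 8 readings in either stage.

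PRDX4 acts in the endoplasmic reticulum, where it uses peroxide to help form disulphide bonds. Plateau follicles had levels of 15.31, 14.17, 14.17 and 14.95, against 14.21, 15.35, 15.41 and 14.91 in growing follicles. The plateau follicle was the higher one of pair 1, the growing follicle that of pairs 2 and 3, and in pair 4 the levels were nearly the same. The mean log2 ratio was -0.32 ± 1.11 (SD, n = 4 pairs; 95% interval -1.47 to 0.84; limma adjusted p = 0.9999), from 1.09, -1.18, -1.23 and 0.05. It was -0.79 without pair 1, -0.03 without pair 2 and -0.01 without pair 3.

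PRDX5, an atypical form found in mitochondria, peroxisomes and the cytosol, had levels of 12.50, 10.95, 11.90 and 12.06 in plateau follicles and 11.41, 12.58, 12.38 and 12.98 in growing follicles. Pair 1 again ran against the other 3 pairs, with its plateau follicle high and its growing follicle low. The ratios were 1.10, -1.63, -0.48 and -0.92, with a mean of -0.48 ± 1.15 (SD, n = 4 pairs; 95% interval -1.68 to 0.72; limma adjusted p = 0.9999). A second probe gave -0.47 ± 1.02 (SD, n = 4 pairs), with the same sign in each pair. Without pair 1, PRDX5 and PRDX2 met the study's criterion, with means of -1.01 for PRDX5 and -0.77 for PRDX2. In that setting 1538 of all 43794 probes met it, against 297 with all 4 pairs. Without pair 2 the means were -0.10 for PRDX5 and -0.23 for PRDX2 and neither met the criterion.

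PRDX6, the form with a single reactive cysteine, is restored by glutathione and also repairs membrane phospholipids. It was the only member with a mean above 0. Its levels were 14.16, 14.20, 15.69 and 14.24 in plateau follicles, against 13.83, 14.76, 14.51 and 14.89 in growing follicles. The plateau follicle of pair 3 stood above the other 7, and it was the follicle that held the lowest levels of GPX1 and GPX3. The mean log2 ratio was 0.07 ± 0.86 (SD, n = 4 pairs; 95% interval -0.83 to 0.98; limma adjusted p = 0.9999), from 0.33, -0.56, 1.18 and -0.66. The other 4 probes of PRDX6 had means of the opposite sign, from -0.32 to -0.06, while each of them was above 0 in pair 3 and under 0 in pairs 2 and 4. In pair 1, the PRDX6 probe with a mean of -0.06 was at -0.46, against the sign of the brightest probe. Without pair 3 the mean of the brightest probe was -0.29.

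CAT varied least of the 10. Its levels were 13.29, 13.08, 12.72 and 13.03 in plateau follicles, against 13.22, 13.45, 13.15 and 13.38 in growing follicles. The growing follicle was slightly higher in pairs 2, 3 and 4, and the plateau follicle of pair 1 lay among the growing ones. The ratios were 0.07, -0.37, -0.44 and -0.35, with a mean of -0.27 ± 0.23 (SD, n = 4 pairs; 95% interval -0.58 to 0.03; limma adjusted p = 0.9999). CAT thus had the narrowest interval of the 10, and its fold of plateau over growing, 0.828, was smaller than the criterion asks for.

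**Figure D2:**
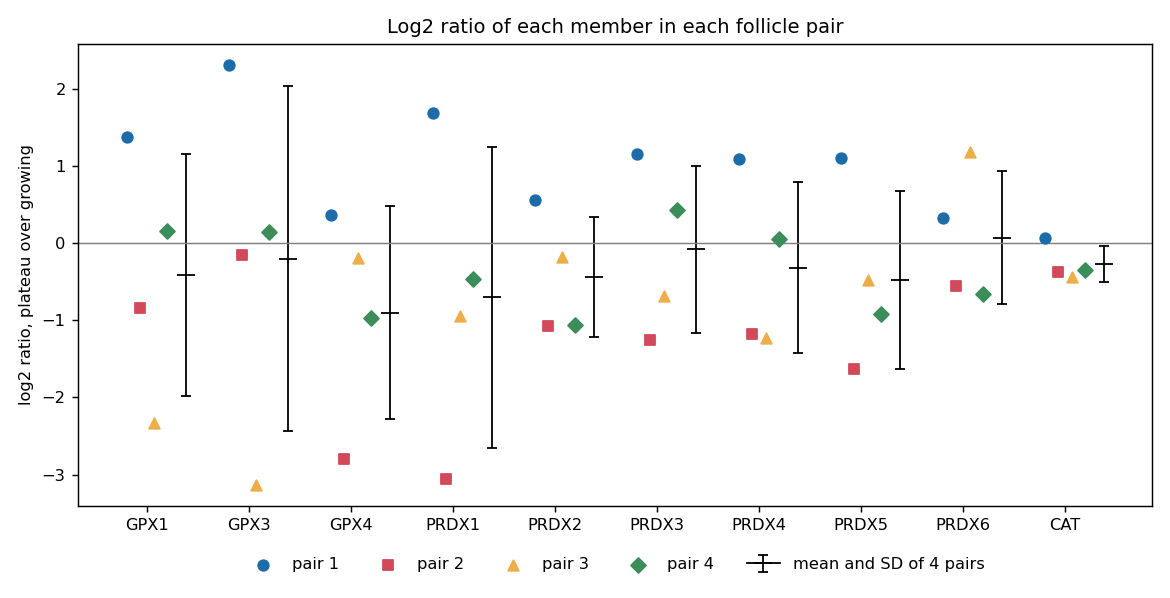
Log2 ratio of plateau over growing (y axis) for the brightest probe of each member (x axis) in the 4 follicle pairs, with the mean and SD of the pairs in black. Pair 1 lies above 0 and pair 2 below 0 for all 10 members, and the bar of CAT, -0.27 ± 0.23, is the only one that stays on one side of 0.

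The direction of the members differed between the pairs, each of which holds 1 plateau and 1 growing follicle. By their brightest probes, all 10 were above 0 in pair 1, with a median log2 ratio of 1.10. All 10 were under 0 in pair 2, with a median of -1.13. Some other probes departed from this. In pair 1 a PRDX6 probe was at -0.46, and dim probes of GPX3 (-0.08) and PRDX3 (-0.14 and -0.05) were also under 0. A dim PRDX3 probe was at 0.08 in pair 2. The granulosa markers moved the same way as the brightest probes in pair 1, with 7 of 9 above 0. In pair 2 they split, with 4 above and 5 under 0. The log2 ratios there included -3.64 for AMH and -3.23 for INHA, and 1.32 for FSHR and 1.74 for GATM. Their part in the members' ratios was not tested. Over all genes, 53.7% were above 0 in pair 1, 49.6% were under 0 in pair 2, and 31.2% were both. In pair 3, 9 of the 10 were under 0 (median -0.58), against 50.1% of all genes, and in pair 4, 6 were (median -0.41), against 51.4% of all genes. Not one of the 10 was under 0 in all 4 pairs, which 4.27% of all genes were. The members are not independent of each other, so these counts describe the 4 pairs and carry no test.

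The 2 arrays of a pair gave nearly the same ratios. The ratio had the same sign with the dyes exchanged in 37 of 40 readings, and an array differed from its pair average by 0.06 to 0.18 log2 units, as the mean over the pairs of each member. The exceptions were GPX3 in pair 2, GPX4 in pair 3 and PRDX4 in pair 4, all with ratios near 0 in one or both orientations. The spread among pairs was therefore measured alike on both slides. For GPX3 in pair 3, the ratio was -3.08 with plateau in Cy5 and -3.17 with growing in Cy5.

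**Figure D3:**
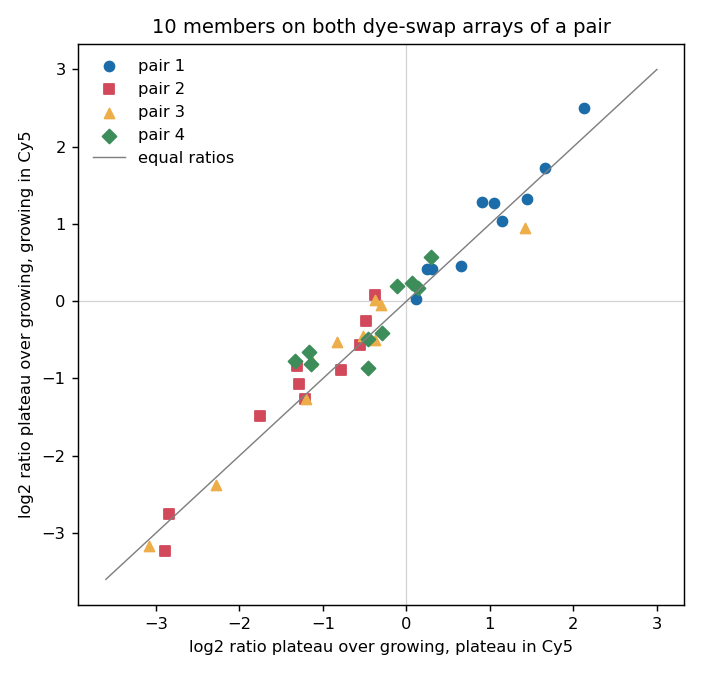
Log2 ratio of plateau over growing of the 10 members in each pair, measured with the plateau follicle in Cy5 (x axis) and with the growing follicle in Cy5 (y axis). The 40 points lie along the line of equal ratios, and 37 of them have the same sign on both slides.

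Seen by follicle, the members were lowest in the growing follicle of pair 1 and in the plateau follicle of pair 2. Taken as the level minus the mean of the 8 follicles, the median over the 10 members was 0.35, -0.61, -0.37 and 0.06 in the plateau follicles of pairs 1 to 4, and -0.64, 0.40, 0.31 and 0.41 in the growing follicles. In the growing follicles of pairs 2 and 4 all 10 members were over their mean, while in the growing follicle of pair 1 and in the plateau follicle of pair 2 only 1 of the 10 was. The same median over all genes lay between -0.02 and 0.01 in every follicle. In the plateau follicle of pair 3 the members parted: GPX3 was at -2.82 and GPX1 at -2.0, whereas PRDX6 was at 1.15 and GPX4 at 0.45. That follicle had the lowest average of granulosa markers, 9.87, followed by the plateau follicle of pair 2, 10.69. The plateau follicle of pair 3 also had the highest average of smooth muscle and fibroblast markers, 11.96. The part of these markers in the members' levels was not tested.

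**Figure D4:**
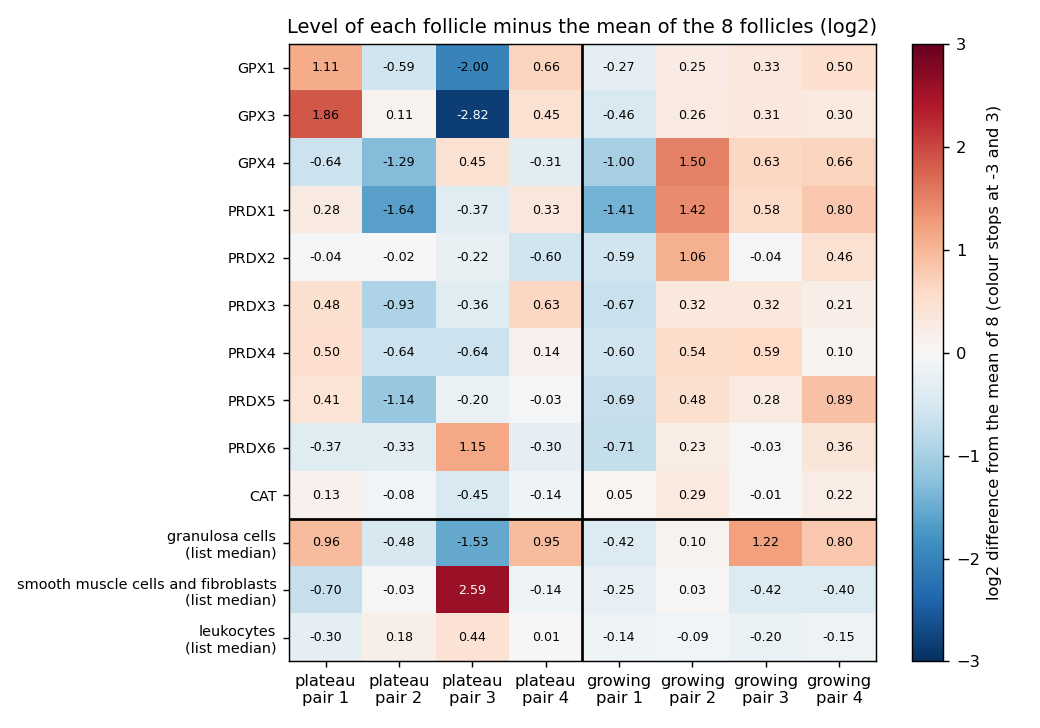
Log2 level of each follicle minus the mean of the 8 follicles, for the 10 members (rows above the line) and as the median of 3 marker lists (rows below it, over markers above background on at least 4 of 8 readings of a stage), with plateau follicles left of the vertical line and growing follicles right of it. The plateau follicle of pair 3 holds the lowest GPX1 and GPX3 values and the highest smooth muscle and fibroblast median, 2.59.

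Levels of the members were set against each other over the 8 follicles, in 45 relations, of which 40 had a Pearson's r over 0 and 5 under 0 (median 0.52). The same count was not made for other genes, so it cannot be read as particular to the members. GPX1 and GPX3 had r = 0.94 (exact permutation p = 0.00169, adjusted p = 0.0379) and Spearman's rho = 0.95 (exact permutation p = 0.00114, adjusted p = 0.0502). Without the 2 follicles farthest from the median r was 0.93, and it was 0.95 on the slide with plateau in Cy5 and 0.92 on the slide with growing in Cy5. PRDX1 and PRDX5 had r = 0.92 (exact permutation p = 0.00164, adjusted p = 0.0379) and rho = 0.90 (exact permutation p = 0.00456, adjusted p = 0.0685), with 0.70 without the 2 farthest follicles and 0.91 and 0.92 on the slides. By r these were the 2 relations with an adjusted p under 0.05, and by rho there were none.

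For GPX4, r was 0.85 with PRDX1 (exact permutation p = 0.00623, adjusted p = 0.0703; rho = 0.93, p = 0.00223, adjusted p = 0.0502), and 0.65 without the 2 farthest follicles. With GPX1 the r was 0.02 (exact permutation p = 0.962, adjusted p = 0.962; rho = 0.17, p = 0.703, adjusted p = 0.833), and the difference between these relations was not tested. GPX3 and PRDX6 had an r of -0.68 (exact permutation p = 0.0884, adjusted p = 0.222; rho = -0.24, p = 0.582, adjusted p = 0.728), which turned to 0.68 without the 2 farthest follicles and so rested on them. The 2 follicles of a pair share their arrays, so the 8 points are not fully independent.

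For the 3 members with the widest range, 10146 genes whose log2 intensity averaged 8 or more were searched for the most similar levels over the 8 follicles, as a description with no test. The closest to GPX3 were LINGO2 (r = 0.97), PIGS (0.95) and SLC49A4 (0.94). The closest to GPX1 were ERLIN1 (r = 0.98), FAN1 (0.97) and TMED4 (0.97). PRDX1 was closest to CDKN2D (r = 0.99), PHB1 (0.98) and CYRIB (0.97), of which PHB1 encodes the mitochondrial protein prohibitin and CDKN2D an inhibitor of cyclin-dependent kinases. CDKN2D had log2 levels of 9.96, 8.31, 9.80 and 10.04 in plateau follicles, against 8.36, 11.42, 10.67 and 10.96 in growing follicles. Like PRDX1, it was lowest in the plateau follicle and highest in the growing follicle of pair 2.

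The partners of these enzymes were read from 8 lists of genes by function. The thioredoxin system, which restores most peroxiredoxins, had 13 of 13 genes on the array, with 8 means above 0 and 5 under 0, a median log2 ratio of 0.06 and 0 genes at the study's criterion. The genes of glutathione synthesis and recycling, 16 of 17 on the array, had 5 means above and 11 under 0, with a median of -0.13 and 0 at the criterion. Neither list thus held a gene that passed. The other 5 glutathione peroxidases had 2 means above and 3 under 0, with a median of -0.03 and 0 at the criterion.

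GPX1, GPX3 and GPX4 contain selenium, and of the genes of selenoprotein synthesis and selenium transport, 9 of 11 were on the array, with 4 means above and 5 under 0, a median of -0.01 and 0 at the criterion. Among them SEPHS1, a relative of the enzyme that makes selenophosphate, lay under 0 in all 4 pairs, with a mean of -0.15 ± 0.17 (SD, n = 4 pairs). It was named for this single direction, which 4.27% of all genes had, and its ratio was -0.04 in pairs 2 and 3. The 14 other selenoproteins, all on the array, had 3 means above and 11 under 0, with a median of -0.12. One of them met the criterion in the upward direction and none in the other. This was SELENON, a selenoprotein of the endoplasmic reticulum, with levels of 13.68, 13.28, 14.24 and 13.41 in plateau follicles, against 13.40, 12.97, 12.83 and 12.28 in growing follicles. Its plateau level was the higher one in every pair, with a mean log2 ratio of 0.78 ± 0.57 (SD, n = 4 pairs; limma adjusted p = 0.9999), though the levels of the stages overlapped.

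Catalase is carried into peroxisomes by their import proteins. Of the genes of peroxisome import and assembly, 13 of 17 were on the array, with 5 means above and 8 under 0, a median of -0.02, and 1 gene at the criterion, in the downward direction. PEX11A, which takes part in peroxisome division, had levels of 10.25, 9.46, 9.64 and 10.62 in plateau follicles, against 10.86, 10.98, 10.76 and 10.59 in growing follicles. It was lower in the plateau follicles of pairs 1 to 3 and nearly the same in pair 4, with a mean log2 ratio of -0.81 ± 0.67 (SD, n = 4 pairs; limma adjusted p = 0.9999).

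Enzymes that produce hydrogen peroxide, 21 of 22 on the array, had 13 means above and 8 under 0, with a median of 0.07 and 0 at the criterion. ERO1A, an oxidase of the endoplasmic reticulum that releases peroxide, lay under 0 in all 4 pairs, with a mean of -0.16 ± 0.10 (SD, n = 4 pairs). Like SEPHS1, it was named for this single direction. Of the partners of GPX4 in ferroptosis, 12 of 13 were on the array, with 6 means above and 6 under 0, a median of -0.02, and 1 gene at the criterion, in the upward direction. This was the lipoxygenase ALOX5, typical of leukocytes, with a mean log2 ratio of 0.76 ± 0.71 (SD, n = 4 pairs; limma adjusted p = 0.9999). It was above background on only 5 of 8 plateau and 2 of 8 growing readings, and its ratio was highest, 1.65, in pair 3. The share of all genes at the criterion, given above, is the background against which these single calls stand.

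**Figure D5:**
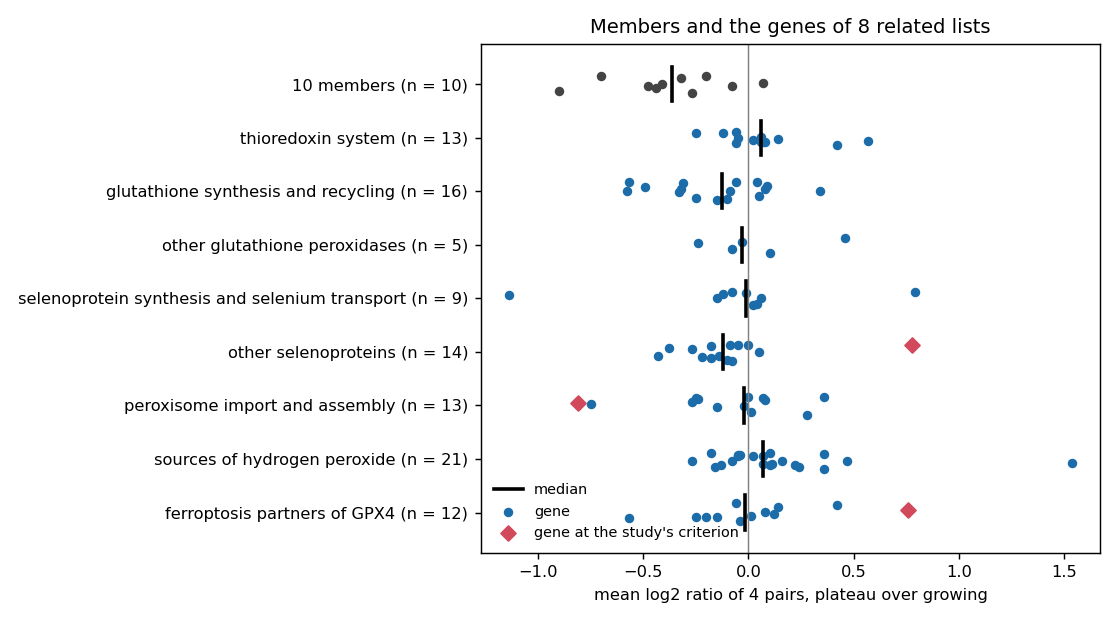
Mean log2 ratio of plateau over growing (x axis) of the 10 members and of the genes on the array from 8 lists by function (rows), 1 point per gene, with the median of each row as a black bar and genes at the study's criterion as red diamonds. The median of the members, -0.36, lies left of the medians of the lists, which run from -0.13 to 0.07.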

How the data were processed

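The deposited values per array were intensity values (the median Cy3 and Cy5 intensity of each of 45220 spots and of its local background), which the authors read with a PowerScanner and mapped in Array-Pro Analyzer 6.4, excluding spots under debris by hand. The authors also deposited log2 ratios of Cy5 over Cy3, made in FlexArray 1.6.1 by background subtraction, loess within arrays and quantile normalisation between arrays. Here the scanner intensities were used, with normexp background correction (offset 50), loess and quantile normalisation in limma 3.58.1 (R 4.3.3). The deposited log2 ratios gave means within 0.04 of these for every member. Plain subtraction on the scanner values, normalised the same way, rebuilt the deposited columns with r of 0.999656 to 0.999911. The column medians lay between -0.0273 and -0.00273.

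Ratios were turned to plateau over growing, the 2 dye-swap arrays of a pair were averaged as 1 replicate, and the 4 averages were tested against 0. A reading was above background when over the mean plus 2 SD of the 757 negative and dark spots. Follicles were paired by array position, which the titles give. Ratios of arrays at the same position correlated at 0.74 to 0.88, and those of other positions at -0.46 to 0.06. Of the 43794 probes, 21790 had a symbol, and 22004 had none and were tested but not named. Symbols of 1524 probes were updated by synonym. The fit was tested on simulated data.

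Named were all 10 members, list genes at the study's criterion or otherwise the 2 of largest change with 1 direction in 4 pairs and an average log2 intensity of 8 or more, and the 3 genes most like each of the 3 most variable members. CDKN2D's levels and the marker genes were singled out after their values were seen. The members and lists were chosen with earlier results of these data known. Alternatives were the deposited ratios, other background and normalisation settings, a replicate block, single slides, a filter on dim probes, the median of all probes of a gene, and leaving out each pair.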

Additional observations from a re-analysis of the deposited data

Results flagged for a closer look

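Values of 4 follicles or 4 pairs were examined for 1 that lay far from the other 3, in 30 groups (the plateau levels, the growing levels and the ratios of the 10 members), and 4 were found. Chance alone gives about 1 in 20 for independent, normally distributed values. These groups share their follicles, and the ratios come from the levels, so the count cannot be tested against that rate. The level of GPX3 in the growing follicle of pair 1, 10.37, was far below the other growing follicles, and so was that of PRDX3 in the same follicle, 11.37. The level of PRDX6 in the plateau follicle of pair 3, 15.69, was far above the other plateau follicles. The log2 ratio of CAT in pair 1, 0.07, was far above those of the other 3 pairs. The lowest level of GPX3, 8.01 in the plateau follicle of pair 3, was not among them, because the plateau follicle of pair 1 was also far from the rest.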

How the results depend on the processing

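Of 140 values recomputed under the alternatives, 126 kept their direction and their side of the threshold, and no setting moved the median of all genes by over 0.1. With the replicate block (random, with a dye term, 8 arrays), 1 member met the study's criterion against 0, GPX4, and 673 probes did in place of 297. With the 8 arrays taken as independent the counts were 1 (GPX4) and 714, and with 1 slide alone 1049 probes (plateau in Cy5) and 851 (growing in Cy5). The 2 settings with 8 arrays added no follicles, and counted the arrays of a pair as partly or fully separate. Leaving out each pair in turn gave 0 to 2 members at the criterion, 7 to 10 members with a mean under 0, and 338 to 1538 probes. The 2 members were PRDX2 and PRDX5, without pair 1, which was also the setting with 1538 probes.

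The mean log2 ratio changed sign for PRDX6 without pair 1 (-0.01), without pair 3 (-0.29), by the median of its probes (-0.08) and on the slide with growing in Cy5 (-0.01). It did so for PRDX3 on that slide (0.01), without pair 2 (0.30) and without pair 3 (0.11), for PRDX1 without pair 2 (0.09), and for GPX1 (0.23) and GPX3 (0.77) without pair 3. Leaving out each pair in turn, the mean ranged from -1.0 to 0.23 for GPX1, from -1.04 to 0.77 for GPX3, from -1.32 to -0.27 for GPX4, from -1.50 to 0.09 for PRDX1, from -0.77 to -0.23 for PRDX2, from -0.50 to 0.30 for PRDX3, from -0.79 to -0.01 for PRDX4, from -1.01 to -0.10 for PRDX5, from -0.29 to 0.32 for PRDX6 and from -0.39 to -0.22 for CAT. The cause of these changes was not tested. All other settings kept the 3 counts within 1.5 times. With 4 pairs, no mean of a member could be told from 0, and the dim probes of GPX3 and PRDX3 carried little signal over background.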
